A study of Mus musculus with 24 samples.

Results

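The 9 genes described here carry out phosphate uptake in the kidney or set it through klotho, parathyroid hormone and vitamin D: Slc34a1, Slc34a3, Slc20a1, Slc20a2, Kl, Cyp24a1, Cyp27b1, Vdr and Pth1r. They were taken by symbol from a table of 28450 features measured by RNA sequencing in mouse kidney. Each symbol matched 1 feature, and all 9 were among the 13020 features that reached at least 1 FPKM (fragments per kilobase of transcript, scaled to the mapped fragments of the library) in at least 6 libraries and were tested. The study used C57BL/6 mice with 6 kidney libraries in each of 4 groups, 24 in all. KO-Gly mice lacked Nlrp3, spelled NLPR3-/- in the labels, and received glyoxylate acid at 75 mg/kg per day in 200 µl by intraperitoneal injection. WT-Gly mice were wild type with the same glyoxylate dose. KO-Ctrl and WT-Ctrl mice were the knockout and the wild type injected with saline. Injections ran from day 1 to day 7, and whole kidney RNA was taken after 7 days. The design text names calcium oxalate nephrocalcinosis, a deposition of crystals in kidney tissue, as the condition studied, and glyoxylate is converted to oxalate in the body. Nlrp3 encodes a sensor protein of the inflammasome. The labels used here do not give age, sex or the part of Nlrp3 that was deleted. The labels name separate samples without saying that each is 1 animal, so p-values here rest on the spread among the samples as labelled.

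Filtered phosphate is recovered mainly in the proximal tubule. Slc34a1 (NaPi-IIa) and Slc34a3 (NaPi-IIc) are sodium-coupled carriers of its brush border, and Slc20a1 (PiT-1) and Slc20a2 (PiT-2) are more widely expressed sodium-phosphate carriers. Parathyroid hormone acts through Pth1r, and FGF23 acts through FGF receptors with the co-receptor klotho (Kl), to withdraw the brush border carriers. The same tubule activates vitamin D with Cyp27b1 and degrades it with Cyp24a1, and the active hormone acts through the nuclear receptor Vdr, which induces Cyp24a1. FGF23 is known to lower Cyp27b1 and raise Cyp24a1, and parathyroid hormone to raise Cyp27b1.

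Some facts of the libraries bear on every comparison. The summed FPKM of 4 Y-linked genes was at or near 0 in KO-Ctrl libraries 1, 2, 3, 5 and 6, with no sum above 0.0852, and lay between 27.1 and 48.7 in KO-Ctrl library 4 and in all libraries of the other groups. The groups compared between WT-Gly and WT-Ctrl, and between KO-Gly and either wild-type group, therefore held only libraries with Y-linked transcripts. Comparisons with KO-Ctrl did not. All 24 libraries shared 1 limma fit, so the KO-Ctrl libraries entered the estimate of spread in every comparison. Nlrp3 itself was low throughout, between 0.119 and 0.144 FPKM in KO-Gly against 0.361 to 0.896 FPKM in WT-Gly, and between 0 and 0.182 FPKM in KO-Ctrl against 0.0397 to 0.0886 FPKM in WT-Ctrl. The first pair of groups did not overlap and the second did, so the level did not check the label of the saline libraries. Summed FPKM of 12 proximal tubule markers was 2734 to 3649 in KO-Gly, 1780 to 2571 in WT-Gly, 3470 to 3935 in KO-Ctrl and 3673 to 4022 in WT-Ctrl. Summed FPKM of 6 tubule injury markers was 4085 to 7472 in KO-Gly, 8333 to 11779 in WT-Gly, 597 to 1353 in KO-Ctrl and 459 to 618 in WT-Ctrl. Most of that sum was 1 gene, Spp1, which averaged 4902 FPKM in KO-Gly, 8253 in WT-Gly, 964 in KO-Ctrl and 417 in WT-Ctrl. Transcripts of the mitochondrial genome took 21.8 to 24.7% of summed FPKM in KO-Gly, 13.5 to 23.0% in WT-Gly, 28.6 to 32.7% in KO-Ctrl and 26.9 to 34.3% in WT-Ctrl, without overlap between each glyoxylate group and its saline group. FPKM is relative to the whole library, and the part of that share in the differences was not tested. Within WT-Gly, libraries 1 and 5 had the lowest mean correlation with the rest of their group, 0.95 and 0.974, and KO-Ctrl library 4 had the lowest within KO-Ctrl, 0.969.

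Under glyoxylate in wild-type kidneys the brush border carriers and klotho fell, the widely expressed carrier Slc20a1 rose, and the receptors for vitamin D and parathyroid hormone fell. Of the 9 members, 1 was higher and 5 were lower in WT-Gly than in WT-Ctrl at an adjusted p under 0.05 (limma, Benjamini-Hochberg over 13020 features). In that comparison 63.5% of all tested features were called, 50.2% higher and 13.3% lower. The groups did not overlap for 4 members, Slc34a1, Slc20a1, Kl and Vdr, and for 38.9% of all tested features. The median log2 difference was -0.44 over the members and 0.26 over all tested features. After median-ratio scaling of the libraries the all-feature median was -0.00 and the called features divided into 3802 higher and 3652 lower, in place of 6537 higher and 1728 lower. The 6 called members kept their direction and their call under that scaling, and Slc20a2 became a called member, 0.47 ± 0.07 (SE) log2 units lower in WT-Gly with an adjusted p of 8.43e-06. In knockout kidneys Slc34a1 did not pass the test under glyoxylate, and Slc34a1, Slc34a3, Kl and Cyp27b1 were higher in KO-Gly than in WT-Gly. The test of a difference between the genotypes in their response to glyoxylate passed for Slc34a1 and Kl, and missed for Slc34a3 and Cyp27b1. Neither call held without the KO-Ctrl libraries that lacked Y-linked transcripts.

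**Figure D1:**
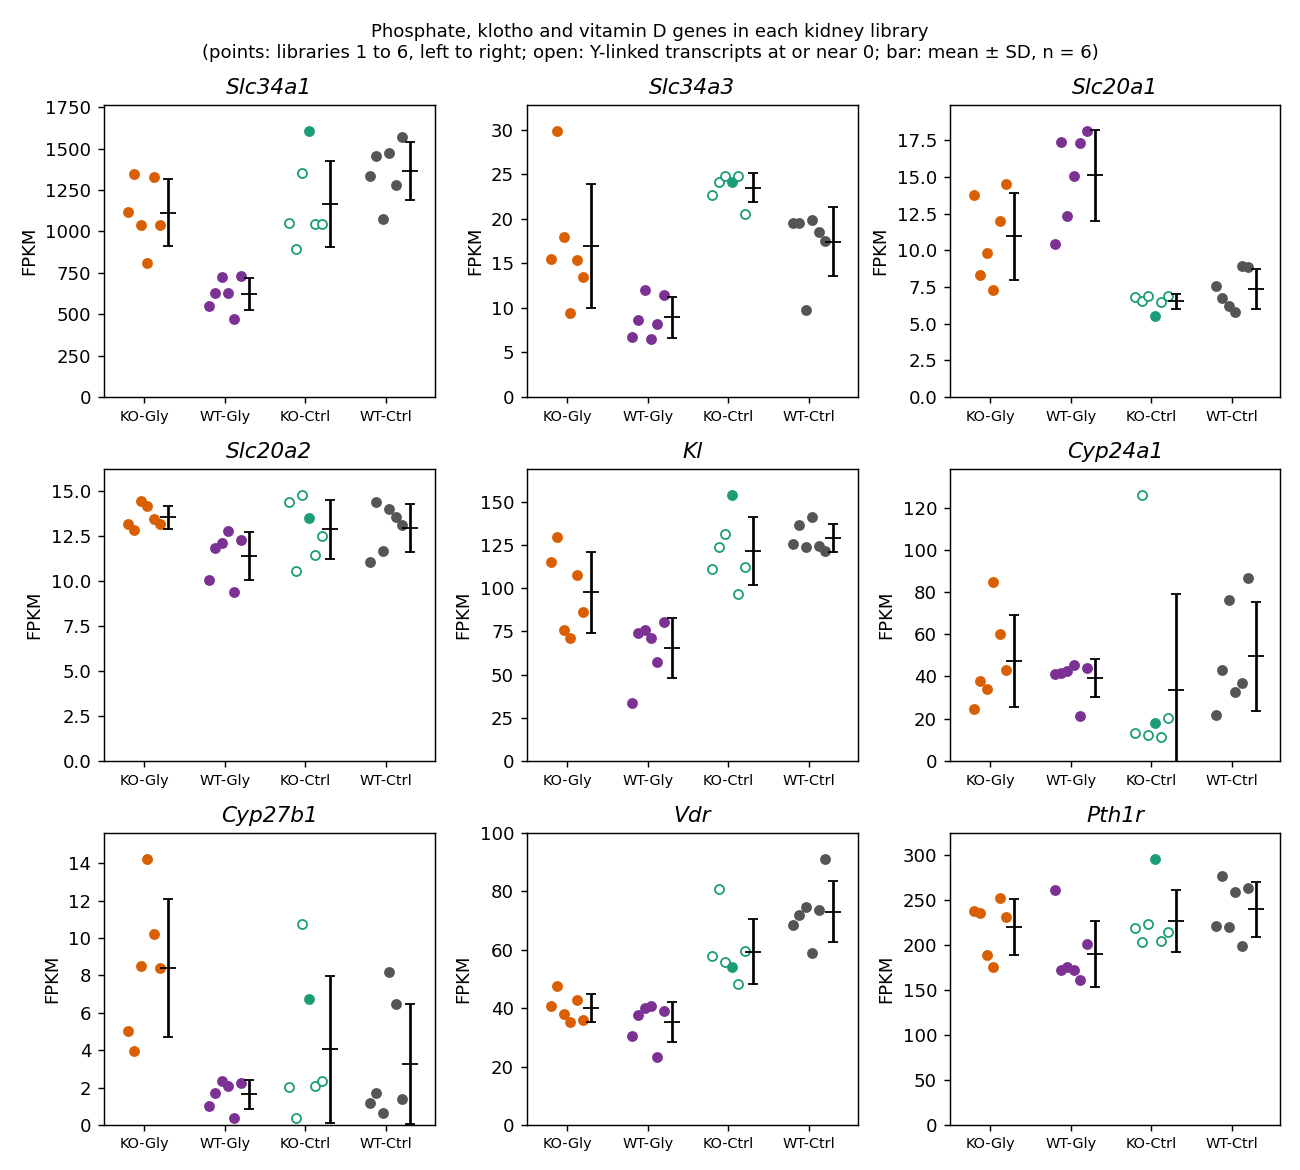
FPKM of each member (y axis, linear from 0) in the 24 libraries by group (x axis), with the mean ± SD of 6 libraries beside the points and open points for the 5 KO-Ctrl libraries whose Y-linked transcripts were at or near 0; the lower bar of Cyp24a1 in KO-Ctrl ends at the axis. The 6 WT-Gly libraries lie below all WT-Ctrl libraries for Slc34a1, Kl and Vdr, and all 6 KO-Gly libraries lie above all WT-Gly libraries for Slc34a1, Slc20a2 and Cyp27b1.

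The members differed in level by orders of magnitude, on the FPKM scale, which is per length. In WT-Ctrl Slc34a1 was highest at 1365 ± 177 FPKM (SD, n = 6), followed by Pth1r at 239.7 ± 30.4 FPKM and Kl at 129 ± 8.01 FPKM. Vdr averaged 73.1 ± 10.5 FPKM, Cyp24a1 49.5 ± 25.8 FPKM, Slc34a3 17.4 ± 3.86 FPKM and Slc20a2 12.9 ± 1.34 FPKM. Slc20a1 and Cyp27b1 were lowest, at 7.37 ± 1.33 FPKM and 3.26 ± 3.22 FPKM. The vitamin D enzymes also varied most among the libraries of 1 group: the coefficient of variation in WT-Ctrl was 98.9% for Cyp27b1 and 52.1% for Cyp24a1, against 6.22% for Kl and 13.0% for Slc34a1.

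Slc34a1, the main brush border phosphate carrier, had its lowest, median and highest FPKM at 807, 1077 and 1346 in KO-Gly, at 472, 627 and 728 in WT-Gly, at 896, 1048 and 1604 in KO-Ctrl, and at 1072, 1397 and 1572 in WT-Ctrl. Every WT-Gly library was below every library of the other 3 groups, and those 3 overlapped one another. Slc34a1 fell by 1.14 ± 0.15 log2 units in WT-Gly relative to WT-Ctrl (SE, adjusted p = 2.97e-07, limma), and was 0.83 ± 0.15 log2 units higher in KO-Gly than in WT-Gly (adjusted p = 0.00019). In bulk kidney, fewer proximal tubule cells and less of the transcript per cell cannot be told apart. Between KO-Gly and KO-Ctrl the log2 difference was -0.06 ± 0.15 (adjusted p = 0.79), and -0.55 ± 0.26 without the 5 KO-Ctrl libraries that lacked Y-linked transcripts (adjusted p = 0.21). The test of the difference between the 2 genotypes in their response to glyoxylate, the interaction, gave 1.08 ± 0.21 log2 units (adjusted p = 0.00062). Without those 5 libraries it was 0.59 ± 0.29 with an adjusted p of 0.46, and the saline knockouts were then represented by KO-Ctrl library 4 alone, which the fit takes to vary like the other groups. That library had the highest Slc34a1 of all 24, at 1604 FPKM, above every KO-Gly library.

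Slc34a3, the second brush border carrier, had its lowest, median and highest FPKM at 9.38, 15.4 and 29.8 in KO-Gly, at 6.55, 8.44 and 12.0 in WT-Gly, at 20.5, 24.1 and 24.8 in KO-Ctrl, and at 9.74, 19.0 and 19.8 in WT-Ctrl. The glyoxylate groups overlapped each other, and WT-Gly overlapped WT-Ctrl only through WT-Ctrl library 3. Slc34a3 fell by 0.89 ± 0.19 log2 units in WT-Gly relative to WT-Ctrl (adjusted p = 0.00033, limma) and was 0.80 ± 0.19 log2 units higher in KO-Gly than in WT-Gly (adjusted p = 0.0032). In KO-Gly it fell by 0.53 ± 0.19 log2 units relative to KO-Ctrl (adjusted p = 0.043). That last call was lost when KO-Ctrl library 1, 2, 3, 4 or 5 was left out, and when KO-Gly library 1, 4, 5 or 6 was; against KO-Ctrl library 4 alone the log2 difference was -0.57 (adjusted p = 0.42). All 6 KO-Ctrl libraries lay above all 6 WT-Ctrl libraries, with a log2 difference of 0.44 ± 0.19 that missed the threshold (adjusted p = 0.15) and passed it when only these 2 groups entered the fit (adjusted p = 0.038). The interaction of genotype and glyoxylate for Slc34a3 missed the threshold (0.36 ± 0.27, adjusted p = 0.35, limma). Within a library, Slc34a3 over Slc34a1 was 0.69 ± 0.16 log2 units higher in KO-Ctrl than in WT-Ctrl, without overlap (exact permutation test of 6 against 6 libraries, two-sided, adjusted p = 0.0091 over 42 tests). The smallest p that test can give is 0.0022 before adjustment. In KO-Ctrl library 4 the ratio was 0.24 log2 units above the WT-Ctrl mean and above each of the 6 WT-Ctrl libraries, and 1 library is too few for the exact test to pass.

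Slc20a1, the carrier PiT-1, moved the other way. Its lowest, median and highest FPKM were 7.30, 10.9 and 14.5 in KO-Gly, 10.4, 16.2 and 18.1 in WT-Gly, 5.55, 6.68 and 6.90 in KO-Ctrl, and 5.83, 7.16 and 8.97 in WT-Ctrl. Each glyoxylate group lay wholly above the saline group of its genotype, and the 2 glyoxylate groups overlapped. Slc20a1 rose by 0.94 ± 0.15 log2 units in WT-Gly relative to WT-Ctrl (adjusted p = 6.08e-06, limma) and by 0.63 ± 0.15 log2 units in KO-Gly relative to KO-Ctrl (adjusted p = 0.0020). Against KO-Ctrl library 4 alone the second difference was 0.83 (adjusted p = 0.11). Its interaction missed the threshold (-0.30 ± 0.21, adjusted p = 0.30). Slc20a1 was 0.44 ± 0.15 log2 units lower in KO-Gly than in WT-Gly (adjusted p = 0.025), a call that was lost with median-ratio scaling (adjusted p = 0.068), when only these 2 groups were fitted, and without KO-Gly library 2, 3 or 4 or WT-Gly library 2 or 6. The call was also lost when library 4 alone stood for KO-Ctrl. The difference was then unchanged, and only the shared estimate of spread and the adjustment moved.

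Slc20a2, the carrier PiT-2, was the steadiest of the 4 carriers in FPKM. It averaged 13.5 ± 0.632 FPKM in KO-Gly, 11.4 ± 1.34 in WT-Gly, 12.9 ± 1.66 in KO-Ctrl and 12.9 ± 1.34 in WT-Ctrl (SD, n = 6 each). KO-Gly ranged from 12.8 to 14.4 FPKM and lay wholly above WT-Gly, which ranged from 9.39 to 12.7 FPKM. The difference of 0.24 ± 0.09 log2 units between them passed the threshold (adjusted p = 0.040, limma). It missed the threshold on the TPM scale, with no filter, and when only these 2 groups were fitted. The call was also lost without KO-Gly library 3, 4 or 5, and without WT-Gly library 1 or 5. The interaction was 0.25 ± 0.12 (adjusted p = 0.13). It passed with median-ratio scaling (0.40, adjusted p = 0.0079) and with quantile normalization (0.39, adjusted p = 0.0068).

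The share of the carriers within each library shifted with glyoxylate. Slc20a1 over Slc34a1, as a difference of log2(FPKM + 1) values, averaged -6.56 ± 0.39 in KO-Gly, -5.28 ± 0.38 in WT-Gly, -7.25 ± 0.38 in KO-Ctrl and -7.36 ± 0.26 in WT-Ctrl (SD, n = 6 each). Every WT-Gly library exceeded every KO-Gly and every WT-Ctrl library. The ratio was 2.08 ± 0.19 log2 units higher in WT-Gly than in WT-Ctrl, 0.70 ± 0.22 higher in KO-Gly than in KO-Ctrl, and 1.28 ± 0.22 lower in KO-Gly than in WT-Gly (SE, exact permutation tests, adjusted p = 0.0091, 0.027 and 0.0091). The call between KO-Gly and KO-Ctrl was lost without KO-Gly library 1 or 6 (adjusted p = 0.053 for each). With KO-Ctrl library 4 alone that difference was 1.38, in a design too small for the exact test to pass. A ratio within a library shows unequal change of the 2 genes and does not show which of them moved.

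The promoter windows of Slc34a1, Slc34a3 and Slc20a1 are shown because these carriers moved in different directions in WT-Gly relative to WT-Ctrl, and that of Cyp27b1 because it had the largest difference between KO-Gly and WT-Gly among the 9 members. Each runs from 250 bases before to 50 after the RefSeq start in the mouse build GRCm38.p6, read 5′ to 3′ on the gene's strand. RefSeq windows were matched by symbol for 7 of the 9 members, 10 windows in all. Capitals mark matches, on either strand, to 4 motifs. They are the core promoter box, with the letters TATAAA, a half-site of the tubule factor HNF1, with the letters GTTAAT, a half-site of nuclear receptors, with the letters AGGTCA, and the E-box, with the letters CACGTG.
Slc34a1 at chr13:55399398-55399697, plus strand: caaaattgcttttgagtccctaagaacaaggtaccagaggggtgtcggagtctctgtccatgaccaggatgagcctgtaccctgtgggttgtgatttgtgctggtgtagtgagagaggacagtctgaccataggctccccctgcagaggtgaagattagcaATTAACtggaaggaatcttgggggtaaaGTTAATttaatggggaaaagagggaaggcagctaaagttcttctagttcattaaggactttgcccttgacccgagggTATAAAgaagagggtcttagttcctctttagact
Slc34a3 at chr2:25234185-25234484, minus strand: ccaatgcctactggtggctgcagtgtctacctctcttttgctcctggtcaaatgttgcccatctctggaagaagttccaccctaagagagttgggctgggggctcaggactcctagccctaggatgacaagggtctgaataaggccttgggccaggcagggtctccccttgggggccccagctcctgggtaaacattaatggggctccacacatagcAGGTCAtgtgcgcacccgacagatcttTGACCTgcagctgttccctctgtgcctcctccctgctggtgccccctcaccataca
Slc20a1 at chr2:129198523-129198822, plus strand: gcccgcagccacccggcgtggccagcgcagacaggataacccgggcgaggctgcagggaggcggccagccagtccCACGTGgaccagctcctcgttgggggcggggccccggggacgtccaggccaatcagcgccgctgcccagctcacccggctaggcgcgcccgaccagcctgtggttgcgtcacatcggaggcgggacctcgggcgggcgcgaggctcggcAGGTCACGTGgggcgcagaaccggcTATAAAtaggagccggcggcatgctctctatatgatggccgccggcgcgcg
Cyp27b1 at chr10:127047996-127048295, plus strand: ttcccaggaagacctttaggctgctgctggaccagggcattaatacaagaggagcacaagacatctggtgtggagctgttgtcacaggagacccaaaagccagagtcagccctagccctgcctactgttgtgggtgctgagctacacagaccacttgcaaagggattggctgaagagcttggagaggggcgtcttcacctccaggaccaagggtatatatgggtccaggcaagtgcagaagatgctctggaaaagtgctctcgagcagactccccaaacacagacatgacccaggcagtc

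In the Slc34a1 window GTTAAT stood in reverse at position -89 and forward at -61, with TATAAA at 17, counted from 1 at the annotated start, with no position 0. The Slc34a3 window held AGGTCA forward at -33 and in reverse at -6. The Slc20a1 window held CACGTG at -175 and at -22, the second overlapping AGGTCA at -26, and TATAAA at -1. A further Slc20a1 window, from another annotated start, held AGGTCA in reverse at -75. The windows of Cyp27b1, Kl, Vdr and Pth1r held no match to the 4 motifs, which says only that these letters are not in those windows. Of 32851 mouse windows of the same length, 13.6% held TATAAA, 7.1% GTTAAT, 16.3% AGGTCA and 7.15% CACGTG on either strand, so single matches are common and are a description only.

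Kl encodes klotho, the co-receptor that lets FGF23 act on tubule cells. Its lowest, median and highest FPKM were 71.1, 96.8 and 129.9 in KO-Gly, 33.7, 72.5 and 80.7 in WT-Gly, 96.6, 118 and 154 in KO-Ctrl, and 121, 125 and 141 in WT-Ctrl. WT-Gly lay wholly below both saline groups, and KO-Gly overlapped WT-Gly and both saline groups. Kl fell by 1.02 ± 0.17 log2 units in WT-Gly relative to WT-Ctrl (adjusted p = 1.37e-05, limma) and was 0.59 ± 0.17 log2 units higher in KO-Gly than in WT-Gly (adjusted p = 0.011). The second call was lost without WT-Gly libraries 1 and 5 together, which had the lowest Kl of their group, and when only these 2 groups were fitted. Between KO-Gly and KO-Ctrl the log2 difference was -0.33 ± 0.17 (adjusted p = 0.15). That difference was -0.69 against KO-Ctrl library 4 alone. Between the full groups it passed with median-ratio scaling (-0.49, adjusted p = 0.042). It also passed without WT-Gly library 1 (adjusted p = 0.044), where it stayed at -0.33 and only the shared estimate of spread and the adjustment changed. The interaction was 0.69 ± 0.24 (adjusted p = 0.036). Without the 5 KO-Ctrl libraries that lacked Y-linked transcripts the interaction was 0.33 ± 0.38 (adjusted p = 0.79). It was also lost without KO-Gly library 1, 2 or 5, KO-Ctrl library 1, 5 or 6, or WT-Ctrl library 2 or 4, or WT-Gly libraries 1 and 5 together. With no filter, on the TPM scale and with quantile normalization the interaction missed the threshold too (adjusted p = 0.066, 0.065 and 0.077). It was called under 19 of 32 alternatives. Klotho is known from distal as well as proximal tubule. The summed FPKM of 6 distal and connecting tubule markers was 1055 to 1373 in KO-Gly and 914 to 1506 in WT-Gly. It was 1793 to 2678 in KO-Ctrl and 1324 to 1891 in WT-Ctrl. Most of that sum was 1 gene, Klk1, which averaged 1061 FPKM in KO-Gly, 964 in WT-Gly, 1937 in KO-Ctrl and 1383 in WT-Ctrl. Pvalb averaged 1.03 FPKM in WT-Gly and 11.5 in WT-Ctrl, and Trpv5 9.47 and 4.71. The part of the distal tubule in the Kl values was not tested.

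Pth1r, the parathyroid hormone receptor, had its lowest, median and highest FPKM at 175, 233 and 252 in KO-Gly, at 161, 174 and 260.4 in WT-Gly, at 203, 217 and 295 in KO-Ctrl, and at 199, 240.1 and 276 in WT-Ctrl. All groups overlapped, with WT-Gly library 1 far above the other WT-Gly libraries, which lay at or under 201 FPKM. Pth1r fell by 0.34 ± 0.12 log2 units in WT-Gly relative to WT-Ctrl (adjusted p = 0.016, limma). Against KO-Ctrl library 4 alone, the highest of all 24 libraries, the log2 difference of KO-Gly was -0.44 ± 0.23 (adjusted p = 0.27). With all libraries it was -0.04 ± 0.12 between KO-Gly and KO-Ctrl (adjusted p = 0.82) and 0.22 ± 0.12 between KO-Gly and WT-Gly (adjusted p = 0.18). Without WT-Gly library 1 the difference between KO-Gly and WT-Gly was 0.31 and passed the threshold (adjusted p = 0.033).

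Vdr, the vitamin D receptor, was lower in the glyoxylate group than in the saline group of each genotype. Its lowest, median and highest FPKM were 35.4, 39.4 and 47.5 in KO-Gly, 23.2, 38.3 and 40.9 in WT-Gly, 48.1, 56.9 and 80.8 in KO-Ctrl, and 58.8, 72.8 and 91.1 in WT-Ctrl. Each glyoxylate group lay wholly below both saline groups, and the 2 glyoxylate groups overlapped. Vdr fell by 1.05 ± 0.13 log2 units in WT-Gly relative to WT-Ctrl (adjusted p = 2.11e-07, limma) and by 0.55 ± 0.13 log2 units in KO-Gly relative to KO-Ctrl (adjusted p = 0.0026). Vdr was also 0.85 ± 0.13 log2 units lower in KO-Gly than in WT-Ctrl (adjusted p = 1.59e-05). Neither of those groups held a library that lacked Y-linked transcripts, but they differ in both genotype and glyoxylate. That difference therefore does not give the response within the knockout. The interaction of 0.50 ± 0.18 passed at an adjusted p of 0.046 and was called under 12 of 32 alternatives. Against KO-Ctrl library 4 alone, without the 5 libraries that lacked Y-linked transcripts, the difference of KO-Gly from KO-Ctrl was -0.43 (adjusted p = 0.29) and the interaction 0.62 (adjusted p = 0.39). Between KO-Gly and WT-Gly the log2 difference was 0.20 ± 0.13 (adjusted p = 0.26), with a 95% interval from -0.06 to 0.45.

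**Figure D2:**
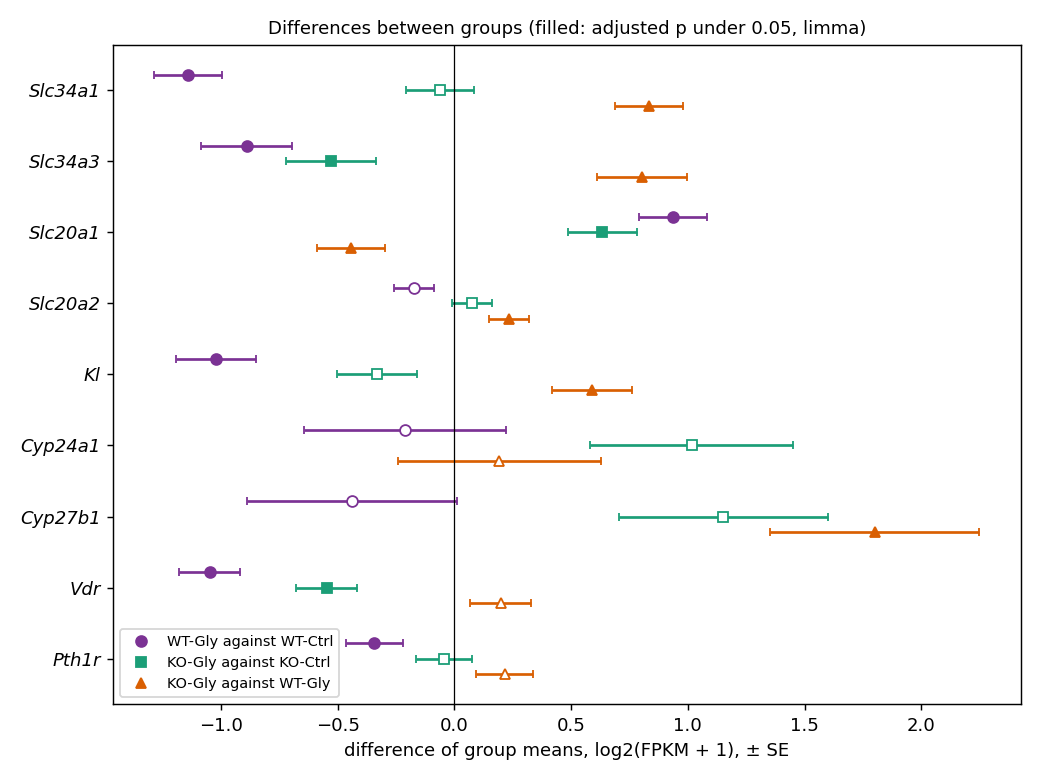
Difference of group means of log2(FPKM + 1) with its standard error (x axis) for each member (y axis) in 3 comparisons, filled where the adjusted p was under 0.05 in limma. In WT-Gly against WT-Ctrl Slc34a1, Slc34a3, Kl, Vdr and Pth1r lie left of 0 and Slc20a1 right of it; in KO-Gly against WT-Gly Cyp27b1 lies farthest right, at 1.80.

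Cyp27b1, the enzyme that makes active vitamin D, was highest in glyoxylate-treated knockouts. Its FPKM values from library 1 to 6 were 5.03, 3.95, 8.51, 14.2, 10.2 and 8.41 in KO-Gly, and 1.04, 1.72, 2.37, 2.06, 0.385 and 2.23 in WT-Gly. They were 2.01, 0.345, 10.8, 6.72, 2.06 and 2.35 in KO-Ctrl, and 1.15, 1.72, 0.656, 8.19, 6.49 and 1.36 in WT-Ctrl. Every KO-Gly library was above every WT-Gly library, while each saline group held 2 libraries well above its other 4. Cyp27b1 was 1.80 ± 0.45 log2 units higher in KO-Gly than in WT-Gly (adjusted p = 0.0040, limma) and 1.36 ± 0.45 higher in KO-Gly than in WT-Ctrl (adjusted p = 0.016). Mean FPKM in KO-Gly was 5.14 times that in WT-Gly. At these low levels the log2(FPKM + 1) scale understates the change. The log2 differences of 1.15 ± 0.45 between KO-Gly and KO-Ctrl (adjusted p = 0.055) and -0.44 ± 0.45 between WT-Gly and WT-Ctrl (adjusted p = 0.41) missed the threshold. The first was called under 9 of 33 alternatives, among them the TPM scale (1.40, adjusted p = 0.044). It was also called without KO-Gly library 1 or 2, KO-Ctrl library 3 or 4, or WT-Ctrl library 4 or 5. Without WT-Ctrl library 4 or 5 the difference stayed at 1.15, and only the shared estimate of spread and the adjustment changed. Against KO-Ctrl library 4 alone the difference was 0.18. The interaction of 1.59 ± 0.63 missed the threshold too (adjusted p = 0.065), and passed without KO-Ctrl library 3 or 4 or WT-Ctrl library 3. The difference from WT-Ctrl missed the threshold under quantile normalization (1.12, adjusted p = 0.055).

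Macrophages can also express Cyp27b1. The summed FPKM of 9 macrophage and monocyte markers was 136 to 409 in KO-Gly, 254 to 728 in WT-Gly, 37.9 to 71.8 in KO-Ctrl and 33.4 to 57.6 in WT-Ctrl, and all 9 markers were lower in KO-Gly than in WT-Gly (limma). The part of macrophages in the Cyp27b1 values was not tested. The summed FPKM of 6 transcripts known to be male-biased in mouse kidney, several of them androgen-dependent, was 54.5 to 586 in KO-Gly, 231 to 296 in WT-Gly, 823 to 1089 in WT-Ctrl and, apart from library 4 at 762, 4.75 to 6.69 in KO-Ctrl, and its part in the values was not tested.

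Cyp24a1, the enzyme that degrades vitamin D, had FPKM values from library 1 to 6 of 24.6, 37.8, 34.0, 84.7, 60.2 and 43.2 in KO-Gly, and of 41.0, 41.8, 42.8, 45.3, 21.1 and 43.8 in WT-Gly. They were 13.0, 125.9, 12.3, 18.0, 11.3 and 20.3 in KO-Ctrl, and 21.9, 43.1, 76.3, 32.5, 37.0 and 86.5 in WT-Ctrl. KO-Ctrl library 2 had the highest value of all 24 libraries, while the other 5 KO-Ctrl libraries, at 11.3 to 20.3 FPKM, were the 5 lowest of all 24. With all libraries none of the 6 contrasts was called for Cyp24a1, with log2 differences of 1.02 ± 0.43 between KO-Gly and KO-Ctrl (adjusted p = 0.081, limma) and -1.03 ± 0.43 between KO-Ctrl and WT-Ctrl (adjusted p = 0.13). Without KO-Ctrl library 2, KO-Ctrl averaged 15.0 ± 3.92 FPKM (SD, n = 5), and 3 contrasts passed the threshold. They were then 1.73 for the interaction (adjusted p = 0.0060), 1.52 between KO-Gly and KO-Ctrl (adjusted p = 0.00071) and -1.54 between KO-Ctrl and WT-Ctrl (adjusted p = 0.0033). This was the only setting that called them, of 33 alternatives, or 32 for the interaction. KO-Ctrl library 2 is singled out here by its Cyp24a1 value itself, so these p-values are not independent of that choice. Of the 5 remaining KO-Ctrl libraries, 4 lacked Y-linked transcripts, and the part of that in the result was not tested.

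KO-Ctrl library 2 also had the lowest Cyp27b1 of its group, at 0.345 FPKM, and its highest Vdr, at 80.8 FPKM. In WT-Ctrl the 2 libraries with the highest Cyp24a1, 3 and 6, had Cyp27b1 of 0.656 and 1.36 FPKM, and the 2 with the highest Cyp27b1, 4 and 5, had Cyp24a1 of 32.5 and 37.0 FPKM. In KO-Gly libraries 4 and 5 were highest for both enzymes. Cyp27b1 over Cyp24a1 within a library was 1.61 ± 0.18 log2 units higher in KO-Gly than in WT-Gly, without overlap (exact permutation test, adjusted p = 0.0091). The same ratio differed by 0.14 ± 0.90 log2 units between KO-Gly and KO-Ctrl (adjusted p = 0.93) and by -0.23 ± 0.61 between WT-Gly and WT-Ctrl (adjusted p = 0.72), where the saline groups spread widely.

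**Figure D3:**
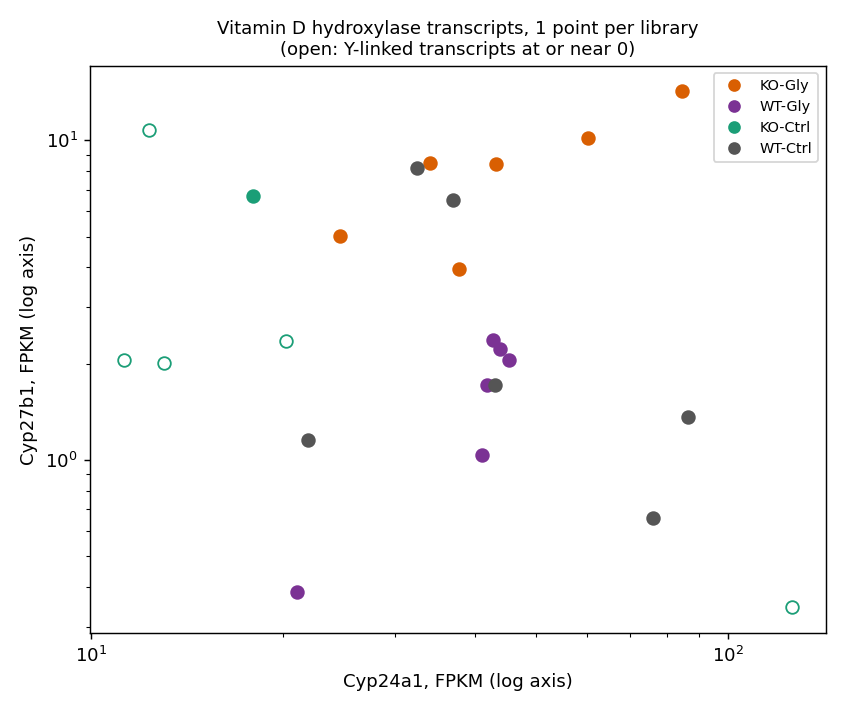
Cyp27b1 FPKM (y axis, log scale) against Cyp24a1 FPKM (x axis, log scale) in each of the 24 libraries, coloured by group, with open points for libraries whose Y-linked transcripts were at or near 0. The 6 KO-Gly points lie above the 6 WT-Gly points, 5 of which cluster near 41.0 to 45.3 FPKM of Cyp24a1, and KO-Ctrl library 2 lies alone at 125.9 FPKM of Cyp24a1 and 0.345 FPKM of Cyp27b1.

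Across comparisons, 3 members were called between KO-Gly and KO-Ctrl, 1 higher (Slc20a1) and 2 lower (Slc34a3 and Vdr), where 29.5% of all features were called, 23.7% higher and 5.72% lower. The groups did not overlap for Slc20a1 and Vdr, and for 17.6% of features. Median-ratio scaling gave 1593 features higher and 1600 lower there, in place of 3092 and 745. Without the 5 KO-Ctrl libraries that lacked Y-linked transcripts no member was called and 3 had an unadjusted p under 0.05. Between KO-Gly and WT-Gly, 6 members were called, 5 higher (Slc34a1, Slc34a3, Slc20a2, Kl and Cyp27b1) and 1 lower (Slc20a1), where 29.8% of features were called, 8.37% higher and 21.4% lower. The groups did not overlap for 3 members, Slc34a1, Slc20a2 and Cyp27b1, and for 8.70% of features. Median-ratio scaling gave 1738 higher and 1991 lower, in place of 1090 and 2792, and fitting only these 2 groups left 3 members called, Slc34a1, Slc34a3 and Cyp27b1. Between KO-Gly and WT-Ctrl, 4 members were called, Slc20a1 (0.49 ± 0.15) and Cyp27b1 higher and Kl (-0.43 ± 0.17) and Vdr lower, where 45.6% of features were called, 38.9% higher and 6.72% lower. The groups did not overlap for Vdr, and for 31.4% of features. Under median-ratio scaling 5 members were called, Cyp27b1 higher and Slc34a1 (-0.55, adjusted p = 0.0051), Pth1r (-0.37, adjusted p = 0.034), Kl and Vdr lower, and Slc20a1 was lost (0.27, adjusted p = 0.19). Kl was lost without KO-Gly library 3, 4 or 6, any 1 of the 6 WT-Ctrl libraries, or the 5 KO-Ctrl libraries that lacked Y-linked transcripts. There median-ratio scaling gave 2197 higher and 2121 lower, in place of 5068 and 875. Between KO-Ctrl and WT-Ctrl none of the 9 was called by limma and 3 had an unadjusted p under 0.05, where 10.6% of features were called, 6.92% higher and 3.67% lower. The groups did not overlap for Slc34a3, and for 4.81% of features. There median-ratio scaling gave 686 higher and 704 lower, in place of 901 and 478. The interaction was called for Slc34a1, Kl and Vdr, where 26.6% of features were called, 6.28% positive and 20.3% negative, and median-ratio scaling gave 1369 positive and 1468 negative, in place of 818 and 2639. These comparisons share groups, so their calls are not independent of one another.

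The called proximal tubule markers moved in the direction of Slc34a1, Slc34a3 and Kl between WT-Gly and WT-Ctrl and between KO-Gly and WT-Gly. Of the 12 markers, none was higher and 7 were lower in WT-Gly than in WT-Ctrl, with a median log2 difference of -0.86, and 9 were higher and none lower in KO-Gly than in WT-Gly, with a median of 0.53. After median-ratio scaling these counts were 0 and 11, and 10 and 0. Between KO-Gly and KO-Ctrl 3 markers were higher and 3 lower, with a median of -0.17. Relative to the mean of these markers within a library, Slc34a1 was 0.37 ± 0.06 log2 units lower in WT-Gly than in WT-Ctrl, without overlap (exact permutation test, adjusted p = 0.0091). That ratio differed by 0.14 ± 0.08 log2 units between KO-Gly and WT-Gly (adjusted p = 0.17). Slc34a3 and Kl over the markers differed by -0.12 ± 0.13 and -0.25 ± 0.15 log2 units between WT-Gly and WT-Ctrl (adjusted p = 0.48 and 0.15), and by 0.11 ± 0.18 and -0.10 ± 0.18 between KO-Gly and WT-Gly (adjusted p = 0.63 for both). These ratios do not show whether the gene or the markers moved. Kl is known from distal tubule too, so its ratio to proximal markers does not show a change within the same cells. Cyp27b1 over the markers remained 1.11 ± 0.31 log2 units higher in KO-Gly than in WT-Gly (adjusted p = 0.023). Slc20a1 over the markers was 1.70 ± 0.14 log2 units higher in WT-Gly than in WT-Ctrl and 1.14 ± 0.22 lower in KO-Gly than in WT-Gly, both without overlap (adjusted p = 0.0091). Slc20a2, whose own level was higher in KO-Gly than in WT-Gly, was 0.46 ± 0.10 log2 units lower there over the markers, and 0.59 ± 0.08 higher in WT-Gly than in WT-Ctrl, both without overlap (adjusted p = 0.0091). Vdr over the markers was 0.41 ± 0.14 log2 units lower in KO-Gly than in KO-Ctrl and 0.49 ± 0.10 lower in KO-Gly than in WT-Gly (adjusted p = 0.014 for both), and the first was -0.16 with KO-Ctrl library 4 alone. Between WT-Gly and WT-Ctrl this ratio differed by -0.28 ± 0.12 and missed the threshold (adjusted p = 0.082). It passed without WT-Gly library 4 or WT-Ctrl library 4. Pth1r over the markers was 0.42 ± 0.17 log2 units higher in WT-Gly than in WT-Ctrl, where its own level was lower (adjusted p = 0.023), and the difference in ratio was 0.28 without WT-Gly library 1 (adjusted p = 0.053).

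**Figure D4:**
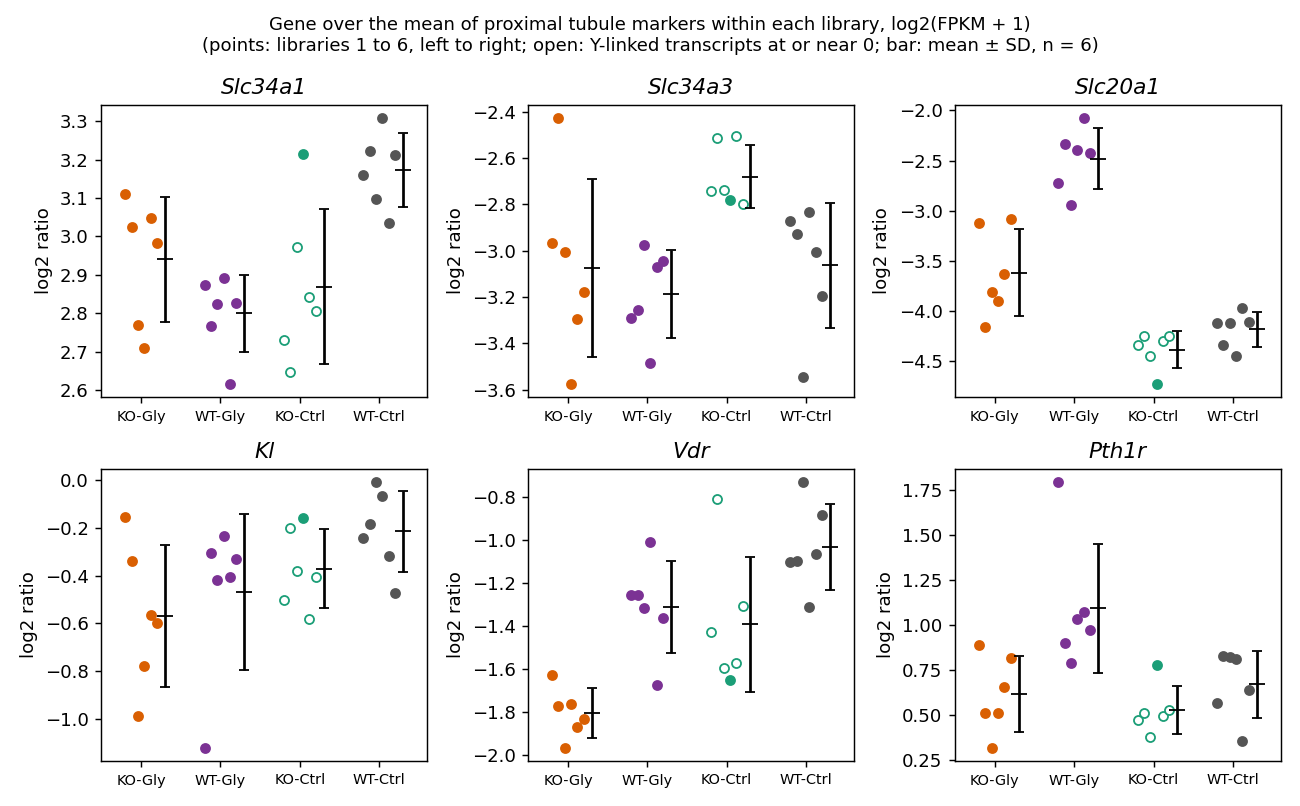
Log2 ratio of 6 members to the mean of 12 proximal tubule markers within each library (y axis, a difference of log2(FPKM + 1) values that does not start at 0) by group (x axis), with mean ± SD of 6 libraries and open points as in the plot of FPKM. WT-Gly lies wholly below WT-Ctrl for Slc34a1 and wholly above it for Slc20a1, while the groups overlap for Slc34a3 and Kl.

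Other genes of the pathway were read from lists of phosphate, FGF23, klotho, vitamin D and mineral genes. Of 9 tested regulators and other phosphate carriers, 3 were higher and 3 lower in WT-Gly than in WT-Ctrl, with a median log2 difference of 0.03, and under median-ratio scaling 2 were higher and 5 lower, with a median of -0.28. Slc34a2, the sodium-phosphate carrier NaPi-IIb best known from intestine and lung, averaged 5.51 ± 1.31 FPKM in KO-Gly, 7.14 ± 2.33 in WT-Gly, 1.10 ± 0.311 in KO-Ctrl and 0.897 ± 0.252 in WT-Ctrl (SD, n = 6 each). It rose by 2.05 ± 0.17 log2 units in WT-Gly relative to WT-Ctrl and by 1.63 ± 0.17 in KO-Gly relative to KO-Ctrl, without overlap in either (adjusted p = 3.35e-10 and 1.87e-07, limma), and its difference between KO-Gly and WT-Gly was -0.29 ± 0.17 (adjusted p = 0.21). Slc17a1, an apical organic anion and phosphate transporter, and Pdzk1, a scaffold of the brush border, fell by 0.94 ± 0.12 and 0.57 ± 0.10 log2 units in WT-Gly relative to WT-Ctrl, and Ezr, which encodes ezrin, rose by 0.52 ± 0.08 (adjusted p at most 3.47e-05 for each). Between KO-Gly and WT-Gly the smallest adjusted p among the 9 was 0.078, for Pdzk1 at 0.24 ± 0.10, and median-ratio scaling called 2 of the 9, both higher.

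Of 12 tested genes of FGF23 and parathyroid hormone action, 2 were higher and 2 lower in WT-Gly than in WT-Ctrl. Prkar1a, a regulatory subunit of protein kinase A, was 0.52 ± 0.07 log2 units higher in WT-Gly, and the FGF receptor Fgfr3 was 0.56 ± 0.13 lower (adjusted p = 3.38e-07 and 0.00043, limma). Under median-ratio scaling 1 was higher and 6 were lower. Of these, Fgfr3 was called between KO-Gly and WT-Gly, 0.36 ± 0.13 log2 units higher (adjusted p = 0.034). Pth was listed at 0 in every group mean, and Fgf23 averaged under 0.01 FPKM in each group, so the hormones themselves were not measurable in kidney RNA here.

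Of 9 transcripts known to rise with FGF and ERK signalling, 8 were higher in WT-Gly than in WT-Ctrl and none was lower, where 50.2% of all features were called higher. The list had a median log2 difference of 0.75, and 0.26 over all features, and under median-ratio scaling 6 were higher and 1 lower. Spry1 and Spry2, feedback inhibitors of receptor tyrosine kinases, rose by 1.26 ± 0.12 and 0.83 ± 0.11 log2 units, and the transcription factor genes Fosl1 and Egr1 by 1.61 ± 0.19 and 1.95 ± 0.28 (adjusted p at most 1.58e-06 for each, limma). Many signals other than FGF23 are known to induce these genes. In KO-Gly 2 of the 9 were lower than in WT-Gly, Fosl1 by 0.79 ± 0.19 and Spry1 by 0.37 ± 0.12 log2 units (adjusted p = 0.0028 and 0.027). Without WT-Gly libraries 1 and 5 this count was 8 lower.

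Of 3 proteases that shed klotho from the cell surface, 2 were higher in WT-Gly than in WT-Ctrl, where 50.2% of all features were called higher. The median log2 difference was 0.50 over the 3 and 0.26 over all features, and median-ratio scaling brought the all-feature median to -0.00. Adam17 and Adam10 rose by 0.73 ± 0.11 and 0.50 ± 0.11 log2 units in WT-Gly relative to WT-Ctrl (adjusted p = 3.55e-06 and 0.00045, limma). Between KO-Gly and WT-Gly the log2 difference was -0.21 ± 0.11 for Adam17 and -0.10 ± 0.11 for Adam10 (adjusted p = 0.16 and 0.52), and without WT-Gly libraries 1 and 5 there were 2 of the 3 called, both lower.

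Of 11 tested genes of vitamin D supply and receptor partners, 2 were higher and 4 lower in WT-Gly than in WT-Ctrl, and 1 and 5 under median-ratio scaling. Gc, the plasma vitamin D binding protein, averaged 85.2 ± 51.1 FPKM in KO-Gly, 101 ± 26.9 in WT-Gly, 39.0 ± 11.5 in KO-Ctrl and 15.3 ± 4.04 in WT-Ctrl (SD, n = 6 each), and rose by 2.65 ± 0.28 log2 units in WT-Gly relative to WT-Ctrl (adjusted p = 2.05e-08, limma). Lrp2 (megalin) and Cubn (cubilin), which take up the filtered binding protein, fell by 0.90 ± 0.15 and 0.94 ± 0.14 log2 units in WT-Gly relative to WT-Ctrl, and were 0.72 ± 0.15 and 0.81 ± 0.14 higher in KO-Gly than in WT-Gly, without overlap (adjusted p at most 0.00082 for each). Rxra, a partner of Vdr on DNA, was 0.37 ± 0.10 log2 units higher and Rxrb 0.34 ± 0.08 lower in KO-Gly than in WT-Gly (adjusted p = 0.0070 and 0.0018).

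The calcium transport genes known to respond to vitamin D did not move together. Of 7, 3 were higher and 3 lower in WT-Gly than in WT-Ctrl, and 2 and 4 under median-ratio scaling. The apical calcium channel gene Trpv6 rose by 1.14 ± 0.11 log2 units and Trpv5 by 0.81 ± 0.18, while the calcium-binding proteins Calb1 and S100g fell by 1.07 ± 0.21 and 0.88 ± 0.24 (adjusted p at most 0.0023 for each, limma). In KO-Gly relative to KO-Ctrl Trpv6 rose by 0.76 ± 0.11 and Calb1 fell by 1.05 ± 0.21 (adjusted p = 7.98e-06 and 0.00053). S100g was 0.74 ± 0.24 log2 units higher and Trpv6 0.33 ± 0.11 lower in KO-Gly than in WT-Gly (adjusted p = 0.021 and 0.023). The list of distal tubule markers, which includes Calb1 and Trpv5, had 1 of 6 higher and 5 lower in WT-Gly than in WT-Ctrl, and its part in these values was not tested.

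Of 6 tested genes of phosphate and mineral balance, 4 were higher and 1 lower in WT-Gly than in WT-Ctrl, and 3 and 2 under median-ratio scaling. Stc2, a stanniocalcin, averaged 2.51 ± 0.554 FPKM in KO-Gly, 5.51 ± 1.30 in WT-Gly, 0.788 ± 0.217 in KO-Ctrl and 0.449 ± 0.0546 in WT-Ctrl (SD, n = 6 each). It rose by 2.14 ± 0.13 log2 units in WT-Gly relative to WT-Ctrl and was 0.88 ± 0.13 lower in KO-Gly than in WT-Gly, without overlap in either (adjusted p = 9.04e-13 and 2.23e-05, limma). Stc1 and Ank, a pyrophosphate transporter, rose by 0.79 ± 0.12 and 0.58 ± 0.16 log2 units in WT-Gly relative to WT-Ctrl, and Abcc6, a transporter needed to hold back ectopic calcification, fell by 0.70 ± 0.12 (adjusted p at most 0.0032 for each). Abcc6 and Alpl, the tissue-nonspecific alkaline phosphatase, were 0.41 ± 0.12 and 0.39 ± 0.13 log2 units higher in KO-Gly than in WT-Gly (adjusted p = 0.012 and 0.032).

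**Figure D5:**
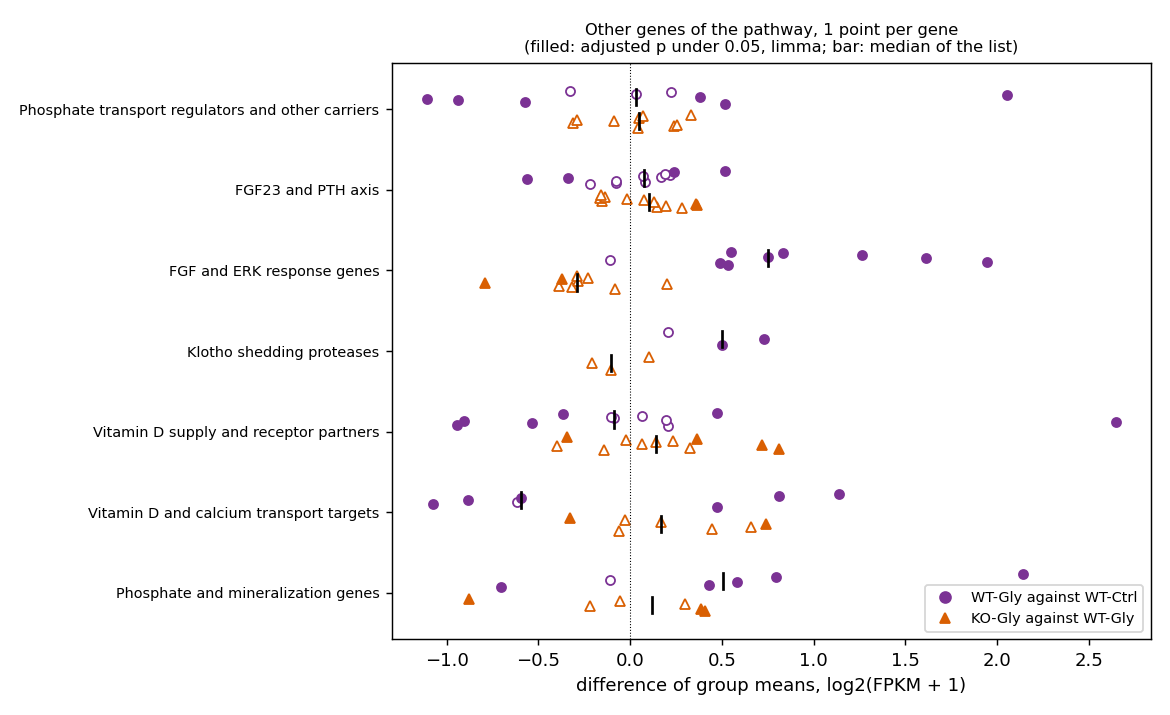
Difference of group means of log2(FPKM + 1) (x axis) for each tested gene of 7 pathway lists (y axis), in WT-Gly against WT-Ctrl and in KO-Gly against WT-Gly, filled where the adjusted p was under 0.05 in limma, with a bar at the median of each list. The FGF and ERK response genes have the highest median in WT-Gly against WT-Ctrl, 0.75, and Gc, Stc2 and Slc34a2 lie farthest right, at 2.65, 2.14 and 2.05.

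Between KO-Gly and KO-Ctrl the same lists gave 4 higher and 3 lower of the 9 phosphate regulators, 1 and 1 of the 12 hormone genes, 4 and 0 of the 9 FGF and ERK response genes, and 1 and 0 of the 3 proteases. They gave 2 and 0 of the 11 vitamin D supply genes, 1 and 2 of the 7 calcium genes, and 2 and 0 of the 6 mineral genes. Without the 5 KO-Ctrl libraries that lacked Y-linked transcripts the counts in the same order were 2 and 0, 0 and 0, 1 and 0, 0 and 0, 1 and 0, 1 and 0, and 1 and 0.

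Genes whose pattern over the 24 libraries was most like each member were ranked by the root mean square difference of standardized log2(FPKM + 1) values, where the median over all ranked features lay between 1.09 and 1.61. Among the closest to Slc34a1 were Slc16a9 (0.33) and Slc6a20b (0.33). Closest to Slc34a3 were Gatm (0.32), Slc22a8 (0.45) and Rfng (0.49), and closest to Slc20a1 were Dusp8 (0.36), Coro1c (0.36) and Cftr (0.39). Kl was closest to Ndufs1, Oxsm and Pigq, at 0.38 to 0.39, and Vdr to Papss1 (0.40), Fbxl21 (0.41) and Col27a1 (0.44). Pth1r had Tm2d2, Akr7a5 and Glb1 at 0.54, and Slc20a2 had Slc25a51 (0.49), Slc35d1 (0.57) and Atg9a (0.60). The vitamin D enzymes had no gene as close: the nearest to Cyp27b1 was Lzts3 at 0.61 and the nearest to Cyp24a1 was Gsr at 0.84. After subtraction of group means Gatm, Dusp8 and Slc25a51 were again the closest to Slc34a3, Slc20a1 and Slc20a2, and Slc6a20b was again among the 3 closest to Slc34a1.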

How the data were processed

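Whole kidney RNA of 24 samples was sequenced after library preparation from 1 µg of total RNA with the Illumina TruSeq kit, per the labels' protocols. Expression was used as FPKM values per library deposited by the authors in 1 table of 28450 features. The submitters' processing notes name Bowtie 0.12.2 and the builds mm8 and mm9 without a role. The sources used here do not name the program, annotation or strand setting behind the FPKM values, so overlapping and antisense genes cannot be told apart. Summed FPKM lay between 439749 and 539018 per library. In 276 library pairs at most 2.74% of the ratios of low features fell in 1 bin of 0.01 log2, so whole reads were not recovered and the depth is unknown. Neither counting intervals nor a count test are given.

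The 13020 features that reached 1 FPKM in 6 or more libraries entered the test on log2(FPKM + 1) with limma 3.58.1 (trend, R 4.3.3) in 1 fit of 4 group means, with Benjamini-Hochberg adjustment over all features tested and a threshold of 0.05. The fit was checked on simulated data. All 9 members passed the filter, so the exact test planned for members below it was not needed. Ratios within a library were compared with exact permutation tests, adjusted over 42 tests. Within-group correlations between libraries were 0.937 to 0.993, and 0 pairs of libraries held identical values. The members and the 21 lists of pathway and marker genes were chosen with earlier results of these data known. All members were named in each contrast, up to 4 genes of a list by the smallest adjusted p, and the 3 features most like each member, of which 1 is not reported here. The lymphocyte and the parathyroid and adrenal lists had no tested gene, with summed FPKM of at most 0.956 and 1.25. Promoter windows are from RefSeq, GRCm38.p6, while no coordinates of the authors' build were used. Alternatives changed the pseudocount, filter, scaling, libraries fitted and replicate block.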

Additional observations from a re-analysis of the deposited data

Results flagged for a closer look

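In 36 combinations of member and group, 6 held a library whose gap to the nearest other library exceeded Dixon's 95% critical value for 6 samples, where chance gives about 1 in 20. KO-Ctrl library 2 had 125.9 FPKM of Cyp24a1, against 11.3 to 20.3 FPKM in the other KO-Ctrl libraries, and 80.8 FPKM of Vdr, against 48.1 to 59.6 FPKM. KO-Ctrl library 4, the only one of its group with Y-linked transcripts, had 295 FPKM of Pth1r, against 203 to 223 FPKM in the others, and 5.55 FPKM of Slc20a1, against 6.45 to 6.90 FPKM. WT-Gly library 5 had 21.1 FPKM of Cyp24a1, against 41.0 to 45.3 FPKM in the other WT-Gly libraries. WT-Ctrl library 3 had 9.74 FPKM of Slc34a3, against 17.5 to 19.8 FPKM in the other WT-Ctrl libraries.

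The response to glyoxylate differed between the genotypes in limma's interaction test for 3 members. The interaction, KO response minus WT response in log2 units, was 1.08 for Slc34a1, 0.69 for Kl and 0.50 for Vdr. Without the 5 KO-Ctrl libraries that lacked Y-linked transcripts it was 0.59 for Slc34a1, 0.33 for Kl and 0.62 for Vdr, and no member passed the threshold, while 2 had an unadjusted p under 0.05. In the saline groups genotype and the presence of Y-linked transcripts cannot be told apart beyond that 1 library.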

How the results depend on the processing

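Over 54 results of single members and 1773 alternative values, 1653 kept their direction and their side of the threshold, 86 lost a call, 34 gained one and 0 called values changed sign. A further 29 values changed sign without a call on either side and count among those kept. Called under every alternative were Slc34a1, Slc34a3, Slc20a1, Kl, Vdr and Pth1r in WT-Gly against WT-Ctrl, Slc34a1, Slc34a3 and Cyp27b1 in KO-Gly against WT-Gly, and Vdr in KO-Gly against WT-Ctrl. The test for members below the filter was not run because no member was below it.

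The count of members called moved by over 1.5 times as follows, and the cause was not tested. For the interaction it was 3, and 1 with no filter, 1 on the TPM scale, 1 without WT-Gly libraries 1 and 5, and 0 without the 5 KO-Ctrl libraries lacking Y-linked transcripts. Between KO-Ctrl and WT-Ctrl it was 0, and 1 with median-ratio scaling, 1 with only the groups compared and 1 without WT-Gly libraries 1 and 5. Between KO-Gly and WT-Ctrl it was 4, and 1 under quantile normalization. Between KO-Gly and WT-Gly it was 6, and 3 with only the groups compared. Between KO-Gly and KO-Ctrl it was 3, and 0 without the libraries lacking Y-linked transcripts and 5 without WT-Gly libraries 1 and 5.

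The number of features called between KO-Ctrl and WT-Ctrl was 1379, and 2746 with only the groups compared, 2660 without WT-Gly libraries 1 and 5, and 0 without the libraries lacking Y-linked transcripts, where 101 had an unadjusted p under 0.05 in limma. It was 3882 and 2168 with only the groups compared between KO-Gly and WT-Gly, and 3837 and 741 without the libraries lacking Y-linked transcripts between KO-Gly and KO-Ctrl. For the interaction it was 3457, and 10 without those libraries and 5719 without WT-Gly libraries 1 and 5. These 2 sets of libraries were chosen after seeing the data.

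With 1 library left out at a time, members called ranged from 6 to 7 in WT-Gly against WT-Ctrl, 4 to 6 in KO-Gly against WT-Gly, 2 to 4 in KO-Gly against KO-Ctrl, 3 to 4 in KO-Gly against WT-Ctrl, 0 to 1 in KO-Ctrl against WT-Ctrl and 1 to 4 for the interaction. The interaction count was 1 without KO-Gly library 1, 2 or 5, KO-Ctrl library 1, 5 or 6, or WT-Ctrl library 2, and the 1 member between KO-Ctrl and WT-Ctrl, Cyp24a1, appeared without KO-Ctrl library 2. Features called ranged in the same order from 7892 to 8687, 3213 to 4263, 3080 to 4805, 5236 to 6935, 817 to 2116 and 2918 to 4279. Between KO-Ctrl and WT-Ctrl they were 817, 843 and 832 without KO-Ctrl library 1, 2 or 6 and 2116 without library 4.

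Groups share replicate numbers in the labels, but deviations of same-numbered libraries correlated at -0.37 to 0.30 over 36 pairs, 7 of them over 0.1, and 1 of 24 libraries correlated best with its own number, so the numbers were not taken as pairs. With the replicate block 8217 features were called in WT-Gly against WT-Ctrl, 3707 in KO-Gly against WT-Gly, 3698 in KO-Gly against KO-Ctrl, 5830 in KO-Gly against WT-Ctrl, 1165 in KO-Ctrl against WT-Ctrl and 3266 for the interaction. The block lost the calls of Slc34a3 in KO-Gly against KO-Ctrl (adjusted p = 0.053) and of Kl in KO-Gly against WT-Ctrl (adjusted p = 0.052), and gained Cyp27b1 in KO-Gly against KO-Ctrl (adjusted p = 0.032) and in the interaction (adjusted p = 0.040). Of 561 alternative values of the ratios within a library, 543 were counted as kept, 7 lost a call, 11 gained one and 0 called values changed sign. Values that changed sign without a call on either side count among those kept. For example, Cyp27b1 over Cyp24a1 between KO-Gly and KO-Ctrl ranged from -1.05 to 0.60 log2 units.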
